A study of Homo sapiens with 6 samples.

Results

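The glycolysis set held 32 genes, of 28395 gene IDs counted, chosen by name for their place in glucose uptake, glycolysis and lactate export. The choice was made with earlier results of these data known. The set took glucose transporters, hexokinases including HKDC1, the glycolytic enzymes, the PFKFB regulators with FBP1, lactate dehydrogenases, lactate transporters and their chaperone BSG. The cells were HCT116, an established human colorectal cancer line. Poly(A)-selected RNA was sequenced from 3 libraries after 24 h in 50 nM TR-107, a small-molecule agonist of the mitochondrial protease ClpP, and from 3 libraries after 24 h in 0.1% DMSO, the vehicle. Both groups were the same line in the same medium, seeded 24 h before treatment. Nothing in the labels says how the cultures of a group were separated. The tests set the difference between groups against the spread of these libraries, and may not extend to independent cultures.

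Glycolysis splits glucose into pyruvate in the cytosol and yields ATP and NADH. Lactate dehydrogenase turns pyruvate into lactate and restores NAD+, and monocarboxylate transporters carry the lactate out with a proton. Proliferating tumour cells commonly run this route at a high rate even with oxygen present, and cells whose mitochondrial respiration is impaired depend on it for ATP. Most steps have several isozymes that differ in regulation and tissue, and HIF1 and MYC are known activators of many of the genes.

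Libraries held 17264039 to 22243758 counts in TR-107 and 18344471 to 23708135 in DMSO, and the genes of the set took 1.53% to 1.57% of counts in TR-107 and 1.79% in each DMSO library. Values are given in CPM, counts scaled to a common library size after TMM correction. Each fold change sets TR-107 over DMSO, and the standard error (SE) beside log2 fold changes was derived from edgeR's F statistic. CPM values are shares of the RNA sequenced, so fewer cells and less RNA per cell cannot be told apart from them. The epithelial markers EPCAM, CDH1, KRT8, KRT18, KRT19 and CDX2 were present in all 6 libraries, whereas VIL1 and CDX1 were at or near 0. Of these 8 markers CDH1, KRT18 and KRT19 rose (1.73-, 1.21- and 1.19-fold; edgeR adjusted p = 3.87e-17, 8.10e-09 and 6.72e-08), CDX2 was 1.38-fold lower (edgeR adjusted p = 0.000518), and EPCAM and KRT8 did not pass the test. Mitochondrially encoded genes took 4.62% to 4.99% of counts in TR-107 and 3.56% to 3.92% in DMSO. The part of either in the values of the set was not tested, except that the calls were 5 higher and 17 lower also with scaling factors computed without the mitochondrially encoded genes. Of markers of other cell types, PTPRC and DCN had no count, PECAM1 and ALB reached at most 0.384 and 0.117 CPM, DES averaged 1.04 CPM in TR-107 and 1.07 CPM in DMSO, and COL1A1 lay between 12.9 and 18.2 CPM.

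Most of the set was lower after TR-107, and the change was uneven along the pathway. Of 31 genes tested, 17 fell and 5 rose (edgeR's quasi-likelihood test, Benjamini-Hochberg adjusted p under 0.05), against 28.6% lower and 29.2% higher, or 57.8% in all, among the 13767 genes tested. The median log2 fold change was -0.23 for the set and 0.01 for all genes tested. LDHA, PGAM1, ALDOC and SLC2A6 were at least 2-fold lower, and HKDC1 was the single gene at least 2-fold higher; among all genes tested 3.71% were called at least 2-fold lower and 6.55% at least 2-fold higher, 10.3% in all. SLC2A1, PFKFB2, GAPDH and BSG were the other genes that rose. In 19 of the 31 genes every TR-107 library lay below every DMSO library, and in 6 every one lay above (30.9% and 31.5%, or 62.4% in all, of the genes tested). FBP1, the gluconeogenic bisphosphatase that opposes phosphofructokinase, was too low to test, with a single count (1) in the TR-107 libraries, in replicate 2, and 4 counts in the DMSO libraries, all in replicate 3.

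**Figure D1:**
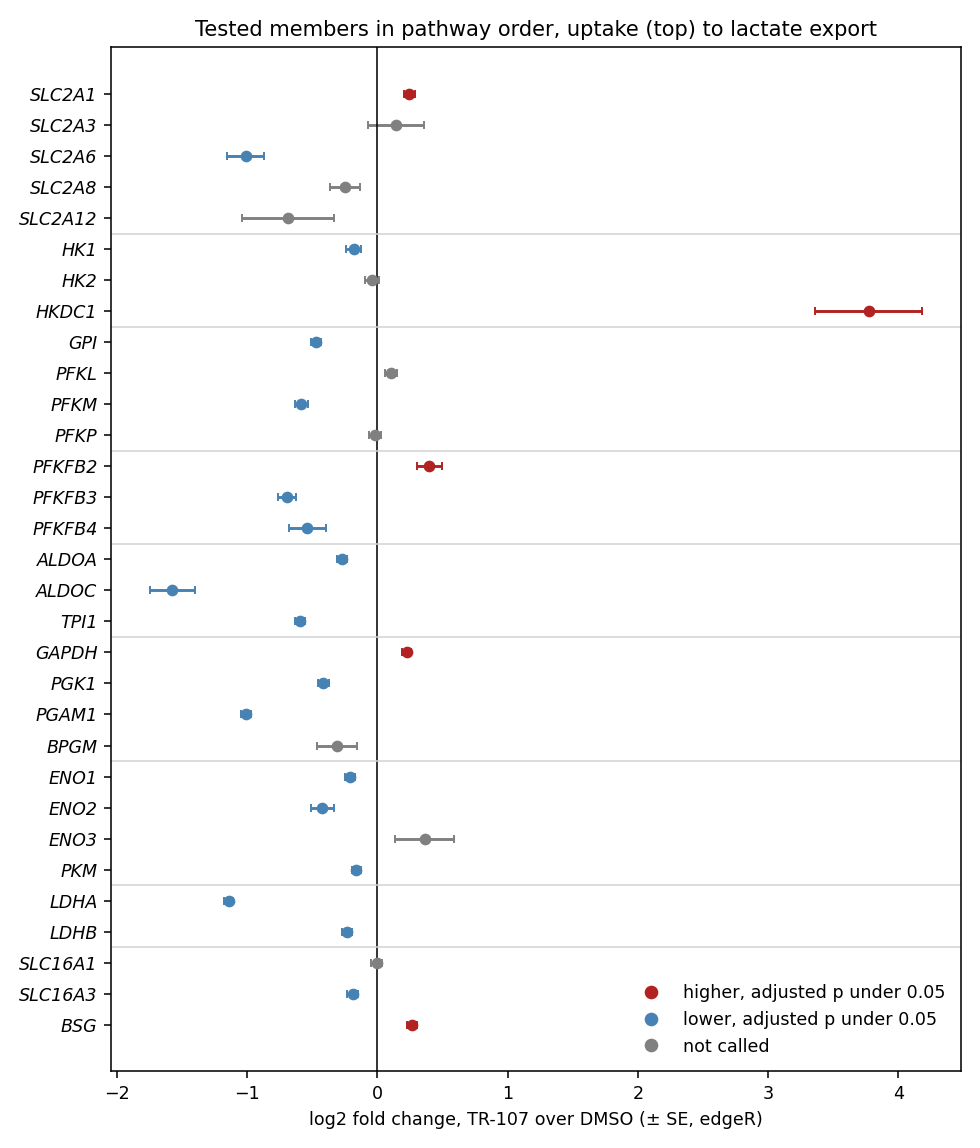
Log2 fold change of the 31 tested genes, TR-107 over DMSO, with its SE, in pathway order from glucose uptake at the top to lactate export at the bottom; red points were called higher, blue lower and grey points were not called. HKDC1 stands far to the right at 3.77, and ALDOC is the lowest at -1.57. Most enzymes between GPI and LDHB lie left of 0, with PFKL, PFKFB2, GAPDH and ENO3 on the right.

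Upstream sequences of 5 genes are given because they belong to the genes with the largest changes and to LDHB, the partner of LDHA that moved much less. Each is the 250 bases before an annotated transcript start (RefSeq, GRCh38.p14), written along the gene's own strand. LDHA has 2 such windows in the table, and the one with motif matches is shown; the other (chr11:18396101-18396350) has none. Capitals mark ACGTG on either strand, a form of the core of the site that HIF1 is known to bind. No other form of that core was searched, so a window without a match may still hold one. Where both strands match, the letters form CACGTG, the E-box that MYC, MAX and their relatives are known to bind.
LDHA (chr11:18394313-18394562, plus strand): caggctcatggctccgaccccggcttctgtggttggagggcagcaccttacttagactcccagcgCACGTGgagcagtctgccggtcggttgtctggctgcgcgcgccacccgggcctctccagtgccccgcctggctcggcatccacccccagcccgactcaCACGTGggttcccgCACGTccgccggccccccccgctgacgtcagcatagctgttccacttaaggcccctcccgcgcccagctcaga
LDHB (chr12:21657843-21658092, minus strand): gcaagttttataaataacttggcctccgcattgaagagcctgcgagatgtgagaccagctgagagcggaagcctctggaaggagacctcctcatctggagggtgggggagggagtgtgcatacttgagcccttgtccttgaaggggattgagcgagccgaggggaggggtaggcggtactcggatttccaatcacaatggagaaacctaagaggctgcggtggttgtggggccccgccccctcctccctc
ALDOC (chr17:28576896-28577145, minus strand): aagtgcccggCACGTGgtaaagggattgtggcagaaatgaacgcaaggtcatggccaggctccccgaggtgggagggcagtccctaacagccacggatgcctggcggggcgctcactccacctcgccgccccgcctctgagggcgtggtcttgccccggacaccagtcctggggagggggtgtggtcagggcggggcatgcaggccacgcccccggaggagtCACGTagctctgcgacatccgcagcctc
SLC2A6 (chr9:133479100-133479349, minus strand): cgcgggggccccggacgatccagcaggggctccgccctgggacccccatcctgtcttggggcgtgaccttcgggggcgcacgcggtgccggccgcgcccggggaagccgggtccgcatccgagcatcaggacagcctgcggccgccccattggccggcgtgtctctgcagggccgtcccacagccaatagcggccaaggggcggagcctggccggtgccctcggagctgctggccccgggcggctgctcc
HKDC1 (chr10:69220082-69220331, plus strand): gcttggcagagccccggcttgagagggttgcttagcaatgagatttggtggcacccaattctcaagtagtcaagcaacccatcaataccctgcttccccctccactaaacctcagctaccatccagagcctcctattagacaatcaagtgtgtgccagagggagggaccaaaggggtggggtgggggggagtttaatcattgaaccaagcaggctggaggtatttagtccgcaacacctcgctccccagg

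The LDHA window shown held 2 E-boxes, starting 185 and 87 bases before its transcript start, and another ACGTG match whose letters begin 73 bases before it. ALDOC had an E-box 240 bases and a further match 28 bases before the start, while LDHB, SLC2A6 and HKDC1 had no match in these windows. Among 28 tested genes of the set with a window in the RefSeq table, 15 had ACGTG in at least 1 window (53.6%) and 7 had CACGTG (25%), against 28.7% and 11.1% of 10794 tested genes with a window. Counted by window, since some genes have several starts, ACGTG stood in 18 of 55 windows of the set (32.7%) and in 22.3% of all 15689. CACGTG stood in 7 of the 55 (12.7%) and in 8.18% of all windows, so both shares lay closer together by window than by gene. ACGTG was found in 10 of the 17 genes that fell and in 5 of the other 11. CACGTG was found in 4 of the 17 and in 3 of the 11, which were HK2, GAPDH and BSG. PGAM1, also at least 2-fold lower, had no match to either in its window. TGATGNAA, the composite site of ATF4 and C/EBP factors, occurred on either strand in 1 gene of the set, HK1 (3.57%; 2.28% of all genes with a window). These matches are descriptions of letters in short windows, and no binding was measured.

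Among the glucose carriers SLC2A1 rose and SLC2A6 fell, while SLC2A8, SLC2A12 and SLC2A3 did not pass the main test. SLC2A1 (GLUT1), the widespread basal glucose transporter, had 365, 346 and 353 CPM in TR-107 and 299, 309 and 288 CPM in DMSO. The TR-107 libraries all lay above the DMSO ones, and the log2 fold change was 0.25 ± 0.04 (SE; edgeR adjusted p = 1.78e-06). SLC2A6 (GLUT6), a transporter known from lysosomal membranes, had 7.95, 6.90 and 7.50 CPM in TR-107 and 15.9, 14.1 and 15.1 CPM in DMSO. It was 2.01-fold lower (log2 fold change -1.01 ± 0.14, SE; edgeR adjusted p = 9.70e-08), with no overlap between groups. SLC2A8 (GLUT8), an intracellular hexose transporter, averaged 15.6 ± 1.60 CPM in TR-107 and 18.5 ± 0.669 CPM in DMSO (SD, n = 3 each) and missed the threshold (edgeR adjusted p = 0.0691). With library size alone it passed (adjusted p = 0.0227), as it did without TR-107 replicate 1 (0.0297). SLC2A12 (GLUT12) averaged 1.64 ± 0.352 CPM in TR-107 and 2.64 ± 0.361 CPM in DMSO (SD, n = 3 each, edgeR adjusted p = 0.096). TBPL1 overlaps SLC2A12 on the opposite strand and stood well above it, at 18.8 CPM in TR-107 and 18.4 CPM in DMSO. SLC2A3 (GLUT3), a high-affinity carrier, overlapped between groups, with 4.79 to 7.74 CPM in TR-107 and 4.42 to 7.56 CPM in DMSO. Per kilobase of merged exons, SLC2A1 stood far above the other 4 carriers, at 88.9 ± 2.46 CPM per kb in TR-107 and 75.0 ± 2.74 in DMSO (SD, n = 3 each), while SLC2A8, the next, had 7.16 ± 0.734 and 8.49 ± 0.307.

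Hexokinases trap glucose as its phosphate. HKDC1, a hexokinase family member expressed in some epithelia and tumours, had 16.1, 13.4 and 18.1 CPM in TR-107 and 0.856, 2.14 and 0.455 CPM in DMSO. All TR-107 libraries were far above the DMSO ones, and DMSO replicate 2 was the highest of its group with 49 counts, against 16 and 11 in the others. The log2 fold change was 3.77 ± 0.41 (SE; edgeR adjusted p = 7.21e-05), which is 13.7-fold, and it was 24.6-fold without DMSO replicate 2 and 10.2-fold without DMSO replicate 3. HK2, the inducible isozyme that binds mitochondria, had 107, 119 and 116 CPM in TR-107 and 114, 119 and 119 CPM in DMSO, and the groups overlapped (edgeR adjusted p = 0.528). HK1, the housekeeping isozyme, averaged 77.5 ± 5.46 CPM in TR-107 and 87.9 ± 1.52 CPM in DMSO (SD, n = 3 each). Its log2 fold change of -0.18 ± 0.06 (SE; adjusted p = 0.00824 by edgeR) lost the call without TR-107 replicate 2 (adjusted p = 0.096). HKDC1 and HK1 are neighbours on GRCh38 chromosome 10, at 69220332 to 69267552 and 69270000 to 69401882, with 2447 bases between their spans. The noncoding gene LOC101928994 overlaps the HKDC1 span and was also called higher, at 0.630 CPM in TR-107 and 0.0324 CPM in DMSO. Even after the rise HKDC1 was below its relatives per length, at 4.29 ± 0.641 CPM per kb in TR-107, where HK1 had 16.6 ± 1.17 and HK2 19.2 ± 1.01 (SD, n = 3).

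GPI, which isomerises glucose phosphate to fructose phosphate, had 424, 424 and 411 CPM in TR-107 and 610, 546 and 589 CPM in DMSO. The groups did not overlap, and the log2 fold change was -0.47 ± 0.04 (SE; edgeR adjusted p = 1.93e-13). Phosphofructokinase makes the committed step, as tetramers of muscle (PFKM), liver (PFKL) and platelet (PFKP) subunits. PFKM had 102, 109 and 116 CPM in TR-107 and 167, 158 and 165 CPM in DMSO, clearly separated, with a log2 fold change of -0.58 ± 0.05 (SE; adjusted p = 3.17e-13 by edgeR). PFKP, the most abundant subunit per length, averaged 421 ± 35.7 CPM in TR-107 and 426 ± 8.39 CPM in DMSO (SD, n = 3 each; edgeR adjusted p = 0.782). PFKL averaged 162 ± 4.76 CPM in TR-107 and 150.2 ± 6.68 CPM in DMSO (SD, n = 3 each; edgeR adjusted p = 0.055). It passed as higher with upper-quartile factors (adjusted p = 0.0375), without DMSO replicate 2 (0.0275) and without TR-107 replicate 1 (0.0396). The PFKM span overlaps SENP1 on the opposite strand, which averaged 31.8 CPM in TR-107 and 32.3 CPM in DMSO.

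The PFKFB enzymes make and break down the fructose bisphosphate that activates phosphofructokinase. PFKFB3, the isoform with the strongest kinase bias, had 49.3, 56.5 and 57.2 CPM in TR-107 and 92.9, 90.6 and 80.3 CPM in DMSO. It was 1.62-fold lower with no overlap (log2 fold change -0.69 ± 0.07, SE; edgeR adjusted p = 8.55e-12). PFKFB4, a hypoxia-inducible isoform, also fell (9.89 ± 1.39 CPM in TR-107 and 14.3 ± 0.651 CPM in DMSO, SD, n = 3 each; edgeR adjusted p = 0.00116). PFKFB2, the heart isoform, rose, with 27.2, 30.3 and 32.3 CPM in TR-107 and 21.8, 23.4 and 23.0 CPM in DMSO (log2 fold change 0.40 ± 0.10, SE; edgeR adjusted p = 0.000426). Its span overlaps YOD1 on the opposite strand, which did not pass the test (36.9 CPM in TR-107 and 39.6 CPM in DMSO; edgeR adjusted p = 0.288).

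Aldolases cleave the hexose bisphosphate into triose phosphates, which TPI1 interconverts. ALDOA, the main isozyme here, had 1043, 1024 and 1149 CPM in TR-107 and 1310, 1282 and 1290 CPM in DMSO, a log2 fold change of -0.27 ± 0.04 (SE; adjusted p = 7.22e-08 by edgeR). ALDOC, the brain isozyme and a known HIF1 target, had 3.91, 4.16 and 5.92 CPM in TR-107 and 15.0, 14.8 and 12.2 CPM in DMSO. The groups were far apart, and ALDOC was 2.98-fold lower (log2 fold change -1.57 ± 0.17, SE; edgeR adjusted p = 1.71e-10), the largest fall of the set. Per length ALDOC stayed a small part of the step, at 2.29 ± 0.536 CPM per kb in TR-107 beside 445 ± 27.9 for ALDOA (SD, n = 3). TPI1 had 519, 533 and 553 CPM in TR-107 and 820, 802 and 802 CPM in DMSO, with no overlap, and was 1.51-fold lower (log2 fold change -0.59 ± 0.04, SE; edgeR adjusted p = 1.21e-17). SPSB2, on the opposite strand at the end of TPI1, averaged 8.71 CPM in TR-107 and 6.66 CPM in DMSO.

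GAPDH, the dehydrogenase that makes NADH in glycolysis and a common reference transcript, moved against its neighbours in the pathway. It had 5003, 4970 and 5085 CPM in TR-107 and 4342, 4290 and 4236 CPM in DMSO. The groups did not overlap, and it was 1.17-fold higher (log2 fold change 0.23 ± 0.03, SE; edgeR adjusted p = 1.25e-07). PGK1, which makes the first ATP of the payoff phase, averaged 347 ± 9.24 CPM in TR-107 and 462 ± 11.6 CPM in DMSO (SD, n = 3 each), a log2 fold change of -0.41 ± 0.04 (SE; adjusted p = 4.14e-12 by edgeR). PGAM1, the phosphoglycerate mutase, had 287, 298 and 277 CPM in TR-107 and 558, 584 and 590 CPM in DMSO. All 3 TR-107 libraries were near 50% of the DMSO mean (48.0% to 51.5%), and PGAM1 was 2.01-fold lower (log2 fold change -1.01 ± 0.04, SE; edgeR adjusted p = 1.96e-24). BPGM, whose product in red cells lowers the oxygen affinity of haemoglobin, overlapped between groups at 9.92 ± 1.78 CPM in TR-107 and 12.3 ± 1.76 CPM in DMSO (SD, n = 3 each; edgeR adjusted p = 0.0832). With library size alone it passed as lower (adjusted p = 0.0345), and also without DMSO replicate 2 (0.0281) or TR-107 replicate 3 (0.0168).

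Enolase and pyruvate kinase finish the route to pyruvate, and ENO1, ENO2 and PKM fell by modest amounts. ENO1, the ubiquitous enolase, had 2183, 2166 and 2354 CPM in TR-107 and 2560, 2590 and 2599 CPM in DMSO, a log2 fold change of -0.21 ± 0.04 (SE; adjusted p = 2.70e-06 by edgeR). ENO2, the neuronal isozyme, had 29.8, 25.4 and 26.4 CPM in TR-107 and 37.0, 35.3 and 36.8 CPM in DMSO, with no overlap (log2 fold change -0.42 ± 0.09, SE; edgeR adjusted p = 7.81e-05). ENO3, the muscle isozyme, was above DMSO in all TR-107 libraries but missed the threshold, at 5.59 ± 0.335 CPM in TR-107 and 4.36 ± 1.09 CPM in DMSO (SD, n = 3 each; edgeR adjusted p = 0.170). PKM averaged 1771 ± 54.0 CPM in TR-107 and 1978 ± 16.1 CPM in DMSO (SD, n = 3 each), a log2 fold change of -0.16 ± 0.03 (SE; adjusted p = 0.000126 by edgeR). Its splice forms, which differ in regulation, were counted together.

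Lactate dehydrogenase is a tetramer of LDHA subunits, which favour making lactate, and LDHB subunits, which favour its use. LDHA had 517, 529 and 535 CPM in TR-107 and 1167, 1144 and 1178 CPM in DMSO. The spread within each group was small beside the gap, and LDHA was 2.21-fold lower (log2 fold change -1.14 ± 0.04, SE; edgeR adjusted p = 7.72e-28). LDHB had 829, 846 and 921 CPM in TR-107 and 996, 998 and 1048 CPM in DMSO, also without overlap but closer, with a log2 fold change of -0.23 ± 0.04 (SE; adjusted p = 2.57e-06 by edgeR). Per length LDHB was above LDHA in both groups, at 545 ± 30.8 against 178 ± 3.05 CPM per kb in TR-107 and at 639 ± 18.4 against 392 ± 5.91 CPM per kb in DMSO (SD, n = 3 each). In DMSO this order rests on the merged exon lengths used, 2969 bases for LDHA and 1586 for LDHB. By CPM alone LDHA was above LDHB in DMSO and below it in TR-107.

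Among the genes of lactate export, SLC16A3 fell and BSG rose. SLC16A3 (MCT4), the low-affinity exporter of glycolytic cells, had 438, 442 and 435 CPM in TR-107 and 496, 532 and 470.4 CPM in DMSO, a log2 fold change of -0.19 ± 0.04 (SE; adjusted p = 0.000116 by edgeR). CSNK1D overlaps it on the opposite strand and averaged 219 CPM in TR-107 and 205 CPM in DMSO (edgeR adjusted p = 0.0596). SLC16A1 (MCT1), which carries lactate both ways, overlapped between groups at 217 ± 2.93 CPM in TR-107 and 217 ± 6.82 CPM in DMSO (SD, n = 3 each; edgeR adjusted p = 0.943). BSG (basigin), the membrane chaperone of both carriers, had 675, 694 and 712 CPM in TR-107 and 586, 579.8 and 562 CPM in DMSO (log2 fold change 0.27 ± 0.04, SE; edgeR adjusted p = 4.69e-08).

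**Figure D2:**
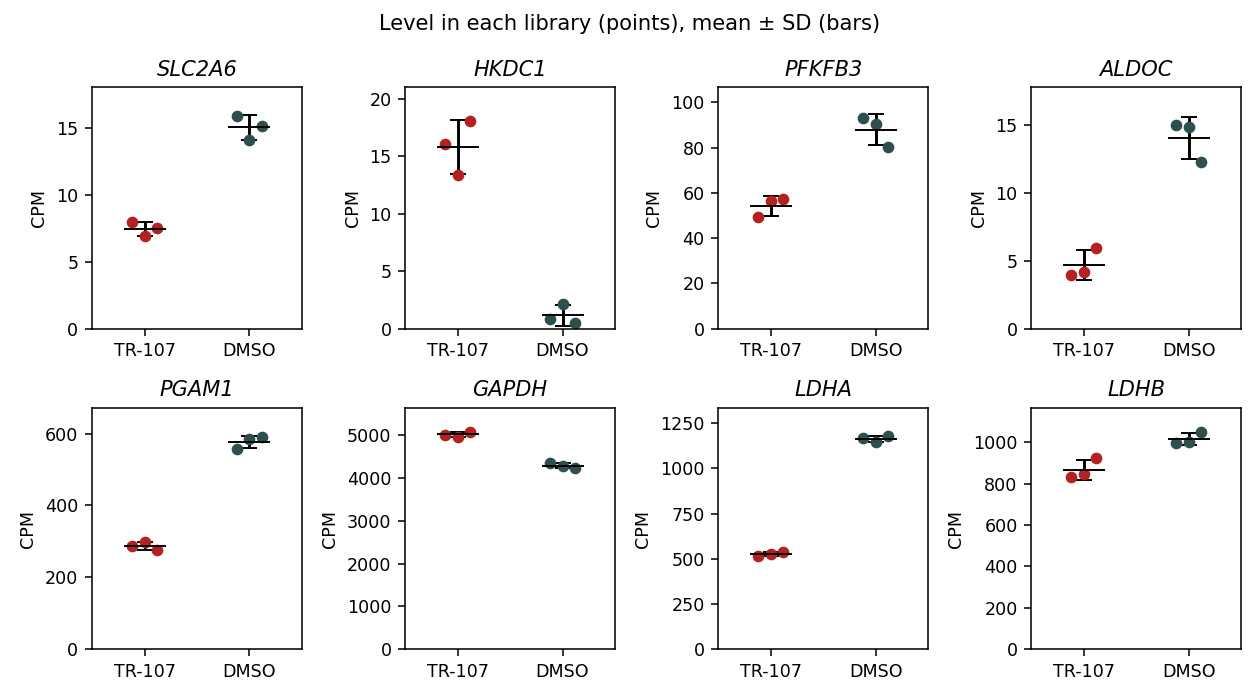
CPM of 8 genes in each library (points), with the mean and SD of the 3 libraries of a group (bars), TR-107 on the left and DMSO on the right of each panel, each axis starting at 0. SLC2A6, PFKFB3, ALDOC, PGAM1, LDHA and LDHB lie lower in all TR-107 libraries, and HKDC1 and GAPDH lie higher.

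Taken by step, with isozymes summed where the set holds several, reads were below DMSO at most steps, furthest at phosphoglycerate mutase. Of 13 steps, 9 lay below every DMSO library in all TR-107 libraries, 2 lay above and 2 overlapped. Among all single genes tested, 30.9% lay wholly below and 31.5% wholly above. The phosphoglucose isomerase, triosephosphate isomerase, GAPDH, phosphoglycerate kinase, phosphoglycerate mutase and pyruvate kinase steps hold 1 gene each and repeat that gene's result. Sums were of CPM without correction for length, so an isozyme with longer exons weighs more, as LDHA (2969 merged bases) does beside LDHB (1586). Phosphoglycerate mutase was at 49.7% of the DMSO mean, lactate dehydrogenase at 64.0%, triosephosphate isomerase at 66.2%, phosphoglucose isomerase at 72.2% and phosphoglycerate kinase at 75.2%. Aldolase, enolase, pyruvate kinase and lactate transport were nearer to DMSO, at 82.3%, 86.4%, 89.5% and 91.4%. GAPDH was at 117% and the sum of the 5 glucose carriers at 113%. The hexokinase sum was 207 ± 7.32 CPM in TR-107 and 206 ± 2.49 CPM in DMSO (SD, n = 3 each), and the groups overlapped although HKDC1 had risen. The phosphofructokinase sum also overlapped, at 691 ± 43.4 CPM in TR-107 and 739 ± 8.86 CPM in DMSO (SD, n = 3 each). Each separated step had an exact two-sided permutation p of 0.1, the smallest that 3 libraries against 3 allow, so no step can reach 0.05 by this test.

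**Figure D3:**
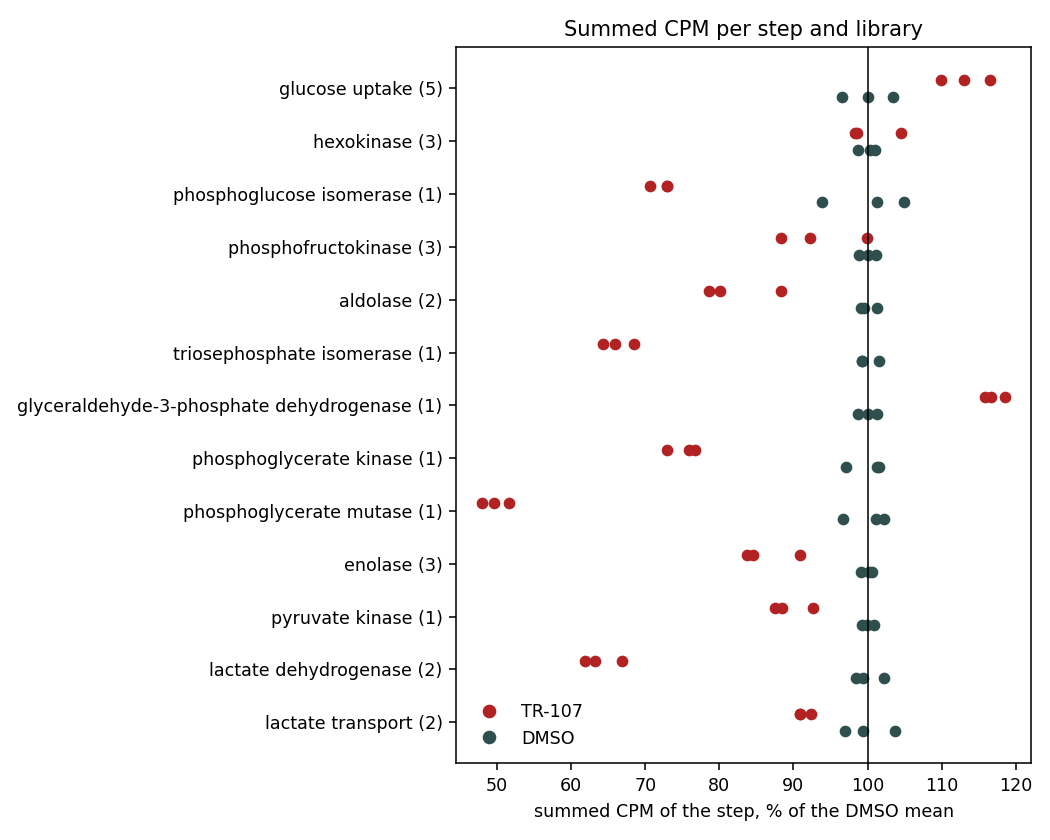
Summed CPM of each step in every library as a percentage of that step's DMSO mean, TR-107 above DMSO in each row, with the number of genes summed in brackets. Phosphoglycerate mutase lies near 49.7% in TR-107, the hexokinase libraries of both groups lie near 100%, and glucose uptake and GAPDH lie right of the line.

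Isozyme ratios within a library separated the groups in 7 of 12 pairs. Among all genes tested, 62.4% did not overlap between groups in their own level, so separation of a pair is not unusual here. Within each library, the log2 ratio of LDHB to LDHA was 0.68, 0.68 and 0.78 in TR-107 and -0.23, -0.20 and -0.17 in DMSO, a difference of 0.91. The ratio of HKDC1 to HK2 was higher by 3.47 and that of PFKFB2 to PFKFB3 by 1.08 on the log2 scale, with a pseudocount of 0.5 CPM. The ratio of ALDOC to ALDOA was lower (difference -1.23), as was that of PFKM to PFKL (-0.69). ENO3 to ENO1 (0.56) and SLC16A3 to SLC16A1 (-0.18) were also separated, while HK1 to HK2, SLC2A3 to SLC2A1, PFKP to PFKL, PFKFB4 to PFKFB3 and ENO2 to ENO1 overlapped. The 7 separated pairs of the 12 compared each had an exact two-sided permutation p of 0.1 (0.171 adjusted over the 12), again the smallest the design allows.

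**Figure D4:**
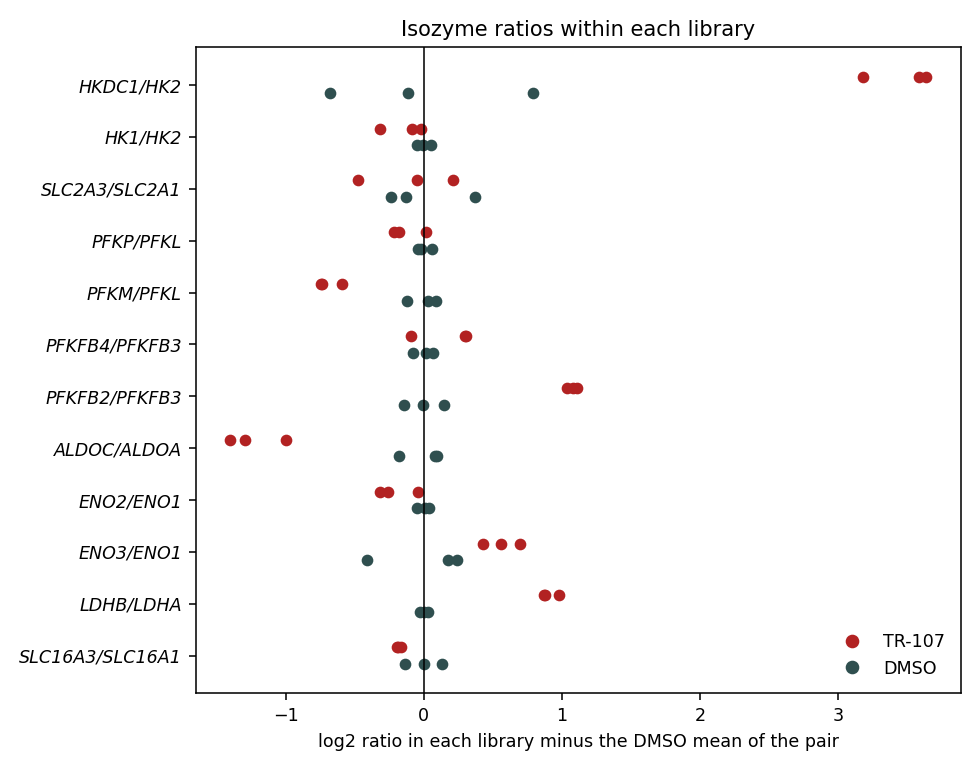
Log2 ratio of each isozyme pair in every library, less the pair's DMSO mean, TR-107 above DMSO in each row. The HKDC1 to HK2, PFKFB2 to PFKFB3 and LDHB to LDHA ratios lie to the right in all TR-107 libraries, by 3.47, 1.08 and 0.91, and the ALDOC to ALDOA and PFKM to PFKL ratios lie to the left.

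On the scale of reads per length, the order of the genes was similar in both groups at the top. GAPDH led at 2257 ± 26.7 CPM per kb in TR-107 and 1929 ± 23.7 in DMSO, followed by ENO1 at 929 ± 43.1 and 1074 ± 8.58 (SD, n = 3 each). LDHB (545 ± 30.8) and PKM (535 ± 16.3 CPM per kb) did not differ beyond their spread in TR-107, and ALDOA came after them. LDHA was the eighth in TR-107 and the sixth in DMSO, and BSG the sixth in TR-107 and the ninth in DMSO. GAPDH made up 36.1% of the summed per-length level of the set in TR-107 and 28.1% in DMSO.

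Of 36 further genes of the pathway, mostly isozymes typical of other tissues, 18 were high enough to test, and 6 fell and 3 rose. That is 33.3% lower and 16.7% higher, 50% in all, and so no larger a share than the 57.8% called among all genes tested; the median log2 fold change of the list was -0.09. PCK2, the mitochondrial enzyme that makes phosphoenolpyruvate from oxaloacetate and is known as an ATF4 target, had 157, 160.2 and 156 CPM in TR-107 and 16.7, 16.4 and 19.1 CPM in DMSO. It was 9.04-fold higher (log2 fold change 3.18 ± 0.07, SE; edgeR adjusted p = 1.47e-34), with the groups far apart. SLC16A8 (MCT3), a lactate carrier of retinal epithelium, rose to 6.20 ± 1.59 CPM in TR-107, against 2.22 ± 0.980 CPM in DMSO (SD, n = 3 each; edgeR adjusted p = 1.99e-05). LDHD, the mitochondrial D-lactate dehydrogenase, rose at a low level (1.86 ± 0.410 CPM in TR-107 and 0.665 ± 0.274 CPM in DMSO, SD, n = 3 each; edgeR adjusted p = 0.00953), and lost the call without DMSO replicate 1 (adjusted p = 0.0630).

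Those that fell included 2 further carriers. SLC2A13, a myo-inositol carrier of the same family, had a log2 fold change of -0.78 ± 0.14 (SE; adjusted p = 9.93e-06 by edgeR), and SLC2A4 (GLUT4), the insulin-regulated carrier of muscle and fat, one of -1.70 ± 0.49 (SE; adjusted p = 0.00264), with 0.608 CPM in TR-107 and 2.01 CPM in DMSO. ADPGK, a sugar kinase that uses ADP, MINPP1, an inositol phosphate phosphatase that also acts on bisphosphoglycerate, TIGAR, a p53-induced fructose bisphosphatase, and PGM2, a phosphopentomutase, fell by 0.36, 0.30, 0.25 and 0.19 on the log2 scale, and the groups overlapped for PGM2. TIGAR and PGM2 lost their calls without TR-107 replicate 1 (edgeR adjusted p = 0.0939 and 0.0948) or DMSO replicate 3 (0.149 and 0.131), and PGM2 also without TR-107 replicate 2 (0.0751). SLC2A2, SLC2A11, PKLR, LDHC and PCK1 had no count in any library.

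Counting limits touch some of these values. Annotated pseudogene copies exist for 12 genes of the set in RefSeq, 109 in all and 65 of them for GAPDH, and 3 of the copies had a row of their own, with at most 36 counts in a library. How reads that fit several copies were treated is not given in the sources used here. In addition 9 genes of the set overlap another annotated gene that is not a miRNA, and the strand setting of the counting is likewise not given.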

How the data were processed

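HCT116 RNA was measured in 6 libraries, 3 per group. The authors deposited raw counts per NCBI Gene ID, made with FastQC, Trimmomatic, HISAT2 and featureCounts on hg38, per the submitters' processing notes. Their versions, the annotation and the strand settings: not given in the sources used here. Of 28395 IDs, 27745 matched a symbol in the RefSeq table of GRCh38.p14, and all were kept. Total counts of 17264039 to 23708135 per library set the precision.

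Counts were tested with edgeR 4.0.16 (R 4.3.3): TMM, filterByExpr, robust quasi-likelihood fit, group alone, Benjamini-Hochberg over the 13767 genes tested, threshold 0.05. In simulated counts the fit recovered 92.5% of genes changed 1.5-fold. That simulation had a common dispersion and few changed genes, none of low count, so it does not cover genes of few reads or a response this wide. SE is the absolute log2 fold change over the root of the F statistic. Ratios and sums used CPM and SciPy 1.17.1 exact permutation tests. Levels per length used merged exons of GENCODE basic transcripts, which overstates the length of genes with rare exons.

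The members, lists and tests were chosen with earlier results of these data known. Per-library values are given, by role group, for the gene with the highest mean CPM, the called gene with the largest change and any gene changed 2-fold. Results for 1 of the 36 genes of the wider pathway list are not reported here. Other genes with per-library values were chosen after their values were seen. Alternatives were other scaling factors, filters and tests (DESeq2 1.42.0, limma 3.58.1 voom, glmTreat), the replicate number as a block and leaving out each library. No pair of replicates agreed within sampling noise (chi-square 3.92 to 6.05 per degree of freedom).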

Additional observations from a re-analysis of the deposited data

How the results depend on the processing

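The 5 higher and 17 lower genes of the set kept that count, within 1.5 times, under every scaling, filter, DESeq2, limma-voom and each library left out (5 to 6 higher and 16 to 18 lower, except 19 lower with library size alone), and all 22 called genes were also called by each of these except HK1, lost without TR-107 replicate 2. A test against 1.5-fold (glmTreat) called 1 gene of the set higher and 4 lower, and 1029 higher and 694 lower among all genes; of the wider list it called 2 higher and 1 lower. Leaving out 1 library gave 3596 to 3852 higher and 3727 to 3825 lower among all genes, and 2 to 4 higher and 5 to 7 lower in the wider list.

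Signs turned only for uncalled genes of the set. With 1 library left out, log2 fold changes ran from -0.037 to 0.40 for SLC2A3 (-0.019 without DMSO replicate 3), from -0.071 to 0.0019 for HK2, from -0.086 to 0.030 for PFKP (0.0087 without TR-107 replicate 2) and from -0.034 to 0.012 for SLC16A1 (0.0064 without TR-107 replicate 1). SLC16A1 was at 0.0016 with upper-quartile factors.

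Library size alone, which lowers all values together (median of all genes -0.05, against 0.01), gave log2 step sums of 0.11 for glucose uptake, -0.057 for hexokinase, whose sign turned, -0.16 for phosphofructokinase, -0.28 for enolase, -0.71 for lactate dehydrogenase and -0.19 for lactate transport. A pseudocount of 2 CPM, which weighs on genes of few reads, gave 2.57 for HKDC1 to HK2 and -0.999 for ALDOC to ALDOA.

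Same-numbered libraries did not deviate together (r of -0.03, -0.02 and 0.04 across genes). The labels do not say whether they had more than a number in common, and 3 libraries per group are too few to settle it. With the replicate block 7918 genes were called in all, and 5 higher and 17 lower in the set. TR-107 replicate 1 correlated best with DMSO replicate 2. Depth limits HKDC1, SLC2A12, SLC2A3, ENO3, SLC2A4 and LDHD.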
